A study of Mus musculus with 18 samples.

Results

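The nuclear genes of the respiratory chain were examined in a mouse array study of 2 knockouts of the MIR205HG locus, in pituitary and in skin. The members were taken by gene symbol, as the probe sets whose platform symbol begins with Ndufa, Ndufb, Ndufc, Ndufs, Ndufv, Uqcr, Cox4i, Cox5, Cox6, Cox7, Cox8 or Atp5, or is Sdha, Sdhb, Sdhc, Sdhd or Cyc1, leaving out the assembly factors whose symbols begin with Ndufaf. The rule itself used no measured value, but it was chosen with earlier results of these data known. It gave 86 genes with 1 probe set each, out of 19505 genes named on the arrays, with 36 genes of complex I, 4 of complex II, 9 of complex III, 20 of complex IV and 17 of complex V. Ndufa4 and Ndufa4l2 were counted with complex IV, to which the Ndufa4 protein is now assigned.

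RNA was measured on 18 Clariom S arrays, 3 for each of 6 groups, as 1 intensity per probe set and array. The groups were pituitary of lncKO mice (arrays 13 to 15), pituitary of miR-205 KO mice (16 to 18) and pituitary of wild-type mice (10 to 12), then skin of lncKO mice (4 to 6), skin of miR-205 KO mice (7 to 9) and skin of wild-type mice (1 to 3). All mice are labelled C57BL/6, female and 5 to 6 weeks old, with no treatment. The title names knockouts of MIR205HG, a long noncoding RNA gene that hosts the microRNA miR-205, and of miR-205. The labels give the genotypes as lncKO, miR-205 KO and wt and do not describe the alleles. The extraction text speaks of a frozen ear segment, beside the pituitary samples as well. Whether the 3 samples of each group are separate mice is not stated in the labels, and the p-values therefore reflect the spread between samples, part or all of which may be technical. The comparisons ask how these genes differ between the tissues and between each knockout and wild type.

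The respiratory chain passes electrons from NADH (complex I) or succinate (complex II) to ubiquinone, on to cytochrome c (complex III) and to oxygen (complex IV). The proton gradient that complexes I, III and IV build drives ATP synthase (complex V). Each complex except complex II joins subunits encoded in the nucleus with subunits encoded by mitochondrial DNA, and several subunits of complex IV exist as a common form and a form restricted to certain tissues, such as striated muscle, lung or testis. None of the 13 mitochondrially encoded subunit genes was measured here under the names searched.

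Promoter windows from RefSeq (GRCm38.p6, 250 bases before to 50 after the start of the gene) were matched to 70 of the 86 members by gene identifier. The 7 windows below belong to members that are named in the results, not all of which were called. They are a common and a muscle isoform of subunit 8 of complex IV, the same pair for subunit 7A, the member that was higher in both knockout skins (Cox7c), a complex III member that was lower in both (Uqcrc1) and a complex II member that was higher in pituitary than in skin (Sdha). Each is given on the strand of its gene, and capitals mark matches, on either strand, to 7 searched motifs: the NRF1 motif, which is GCGC and TGCGC separated by 1 base, with any base between them (wide form) or with A (narrow form), CCGGAAG (GABPA and other ETS factors), AAGATGGC (YY1), GGGCGG (SP1), CTA and TAG separated by 4 free bases (MEF2) and TCAAGGTCA (estrogen-related receptors). Every match to the narrow NRF1 form is also a match to the wide form.
Cox8a (chr19:7217567-7217866, minus strand): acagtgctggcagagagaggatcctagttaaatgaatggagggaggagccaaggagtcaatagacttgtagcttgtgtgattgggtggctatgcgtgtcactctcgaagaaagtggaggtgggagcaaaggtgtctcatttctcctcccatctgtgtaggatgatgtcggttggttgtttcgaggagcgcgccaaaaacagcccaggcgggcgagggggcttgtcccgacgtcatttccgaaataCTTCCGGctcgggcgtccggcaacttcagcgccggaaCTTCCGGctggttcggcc
Cox8b (chr7:140900397-140900696, minus strand): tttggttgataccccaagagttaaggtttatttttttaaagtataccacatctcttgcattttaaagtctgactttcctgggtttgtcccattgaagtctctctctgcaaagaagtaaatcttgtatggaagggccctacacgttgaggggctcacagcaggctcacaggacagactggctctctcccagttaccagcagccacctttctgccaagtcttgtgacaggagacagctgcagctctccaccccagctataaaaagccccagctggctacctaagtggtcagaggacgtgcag
Cox7a2 (chr9:79759804-79760103, minus strand): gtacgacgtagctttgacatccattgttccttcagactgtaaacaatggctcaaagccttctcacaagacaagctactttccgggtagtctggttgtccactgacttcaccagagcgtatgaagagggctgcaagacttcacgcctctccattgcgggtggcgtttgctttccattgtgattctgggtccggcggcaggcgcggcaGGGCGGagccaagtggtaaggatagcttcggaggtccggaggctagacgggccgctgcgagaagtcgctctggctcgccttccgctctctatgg
Cox7a1 (chr7:30183921-30184220, plus strand): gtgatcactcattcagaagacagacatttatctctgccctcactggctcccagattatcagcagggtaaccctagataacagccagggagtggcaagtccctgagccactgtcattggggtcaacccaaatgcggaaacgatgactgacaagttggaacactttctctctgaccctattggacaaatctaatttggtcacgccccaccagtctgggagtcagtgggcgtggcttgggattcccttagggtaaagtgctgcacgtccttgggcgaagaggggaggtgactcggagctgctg
Cox7c (chr13:86046746-86047045, minus strand): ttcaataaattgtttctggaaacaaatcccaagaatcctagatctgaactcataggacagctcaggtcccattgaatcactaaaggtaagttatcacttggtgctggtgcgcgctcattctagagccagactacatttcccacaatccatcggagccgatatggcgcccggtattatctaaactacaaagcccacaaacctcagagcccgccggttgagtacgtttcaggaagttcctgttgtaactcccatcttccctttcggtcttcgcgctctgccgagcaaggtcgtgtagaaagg
Uqcrc1 (chr9:108936398-108936697, plus strand): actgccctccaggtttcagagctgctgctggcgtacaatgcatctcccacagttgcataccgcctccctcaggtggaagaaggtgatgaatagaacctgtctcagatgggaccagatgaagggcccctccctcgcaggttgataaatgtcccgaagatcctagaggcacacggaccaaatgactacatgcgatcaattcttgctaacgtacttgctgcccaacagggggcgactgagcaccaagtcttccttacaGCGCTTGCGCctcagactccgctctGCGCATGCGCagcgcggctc
Sdha (chr13:74350191-74350490, minus strand): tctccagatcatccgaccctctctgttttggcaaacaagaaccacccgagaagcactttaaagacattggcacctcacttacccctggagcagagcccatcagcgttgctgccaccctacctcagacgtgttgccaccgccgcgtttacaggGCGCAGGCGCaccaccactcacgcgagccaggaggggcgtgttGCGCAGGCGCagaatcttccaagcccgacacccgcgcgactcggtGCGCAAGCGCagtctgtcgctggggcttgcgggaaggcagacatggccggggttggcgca

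The Cox8a window held CCGGAAG at 2 sites. The Uqcrc1 window held the wide NRF1 form at 2 sites, of which 1 was the narrow form, and the Sdha window held the wide form at 3 sites. The windows of Cox8b, Cox7a1 and Cox7c held none of the 7 motifs, which says only that these letters are absent from these windows. The wide NRF1 form stood in 24.0% of the 75 windows of members, against 4.60% of all 32851 windows of the table and 6.77% of those of genes named on the arrays, and the narrow form in 6.67%, 0.971% and 1.41% of them. CCGGAAG stood in 22.7% of member windows, 8.86% of all windows and 11.8% of windows of genes named on the arrays, and AAGATGGC in 13.3%, 2.75% and 3.10% of them. GGGCGG stood in 40.0% of member windows, which is above the 35.7% of all windows and below the 47.9% of genes named on the arrays. The MEF2 motif stood in 1.33% of member windows, 3.69% of all windows and 3.52% of windows of genes named on the arrays, and TCAAGGTCA in 2.67%, 0.423% and 0.303% of them. These are descriptions without a test. The median GC content was 57.3% in member windows, 52.7% in all windows and 57.0% in windows of genes named on the arrays.

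The array medians lay between intensities of 82 and 96. Correlations of log2 intensities between arrays lay between 0.97 and 0.99 within each tissue. The 9 keratinocyte markers had a mean log2 intensity of 4.68 to 4.94 in the pituitary arrays and 15.70 to 16.07 in the skin arrays, and the 12 pituitary endocrine markers had 17.22 to 17.66 in pituitary arrays and 3.58 to 5.16 in skin arrays, the highest in wild-type skin 1. Although all mice are labelled female, 3 Y-linked genes had a mean log2 intensity of 9.32 to 9.93 in all 9 pituitary arrays and of 2.66 to 3.32 in all 9 skin arrays, so sex and tissue cannot be told apart in comparisons of the tissues. Among the skin arrays lncKO 5 stood apart, with the highest mean over the members and over 19 skeletal muscle markers.

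The members were abundant transcripts. Of the 86, 75 lay above the median of every array, against 38.6% of all named probe sets. Their intensities ran from 8 to 434958, and 83 exceeded an intensity of 16 on every array. The other 3 were Cox6b2, at or below 16 on 5 arrays, Cox7b2 on 6 and Cox8b on 9. As a mean of log2 intensities over the 86 members, the groups differed little: 11.60 ± 0.03 in lncKO, 11.61 ± 0.06 in miR-205 KO and 11.61 ± 0.03 in wild-type pituitary, and 11.75 ± 0.35 in lncKO, 11.80 ± 0.10 in miR-205 KO and 11.85 ± 0.13 in wild-type skin (SD, n = 3 each).

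Between wild-type pituitary and wild-type skin some members were higher and others lower, within the same complex. The muscle forms of 3 complex IV subunits and both Ndufa4 genes were lower in pituitary, while the common forms Cox8a and Cox6a1, the succinate dehydrogenase flavoprotein Sdha and the ATP synthase c-subunit gene Atp5g1 were higher. Not every common form was higher, as Cox4i1 was lower. Of the 86 members, 36 passed an adjusted p of 0.05 in limma, 13 higher and 23 lower in pituitary, against 52.1% of all 19572 probe sets tested (25.7% higher, 26.4% lower). On 49 members the arrays of the tissues did not overlap, against 55.6% of all. The members' median log2 fold change was -0.18, and that of all probe sets was -0.01. With quantile normalization 22 members were higher and 18 lower, so the balance of directions rests on the scaling.

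**Figure D1:**
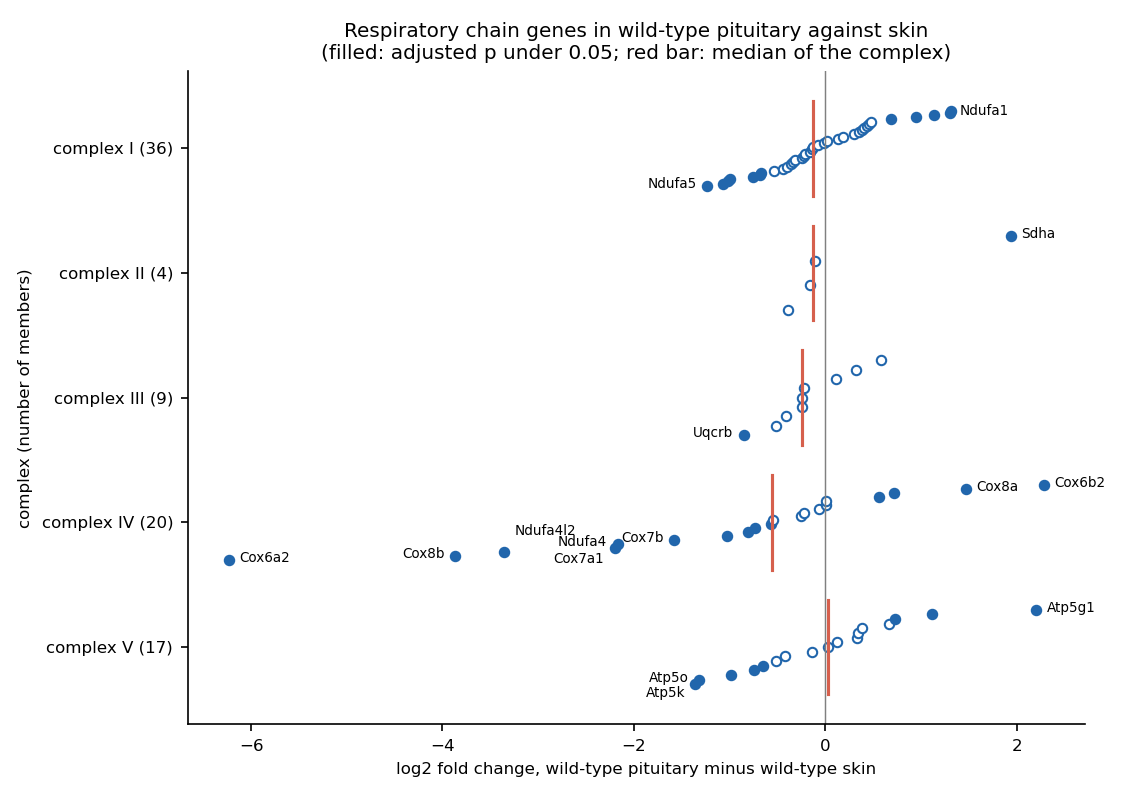
Log2 fold change of each of the 86 members in wild-type pituitary over wild-type skin (horizontal axis, 3 arrays per group), by complex. Filled points passed an adjusted p of 0.05, and red bars mark the median of each complex, which lay lowest in complex IV at -0.56.

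Complex IV held 14 of the 36 called members, 4 higher and 10 lower, and its median was -0.56. Cox6a2, the striated muscle form of subunit 6A, had intensities of 26, 22 and 30 in wild-type pituitary, against 1464, 2256 and 2225 in wild-type skin. The groups lay far apart, and the log2 fold change was -6.24 ± 0.33 (SE, adjusted p = 1.26e-12), the lowest of all members. Its common counterpart Cox6a1 went the other way, with 28524, 22790 and 22734 in pituitary against 15604, 14041 and 21106 in skin. The log2 fold change was 0.56 ± 0.21 (adjusted p = 0.0275), a call that was lost without skin 1 (0.51), without skin 2 (0.44) or without pituitary 10 (0.45). With quantile normalization it was 0.88.

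Subunits 7A and 8 also have a muscle form and a common form. Cox7a1, the muscle form of subunit 7A, had 102, 96 and 64 in wild-type pituitary against 388, 544 and 288 in wild-type skin, with a log2 fold change of -2.20 ± 0.23 (adjusted p = 7.36e-08). Its common form Cox7a2 had 3663, 4190 and 3728 in pituitary against 8292, 4095 and 5227 in skin, and these arrays overlapped (-0.54 ± 0.27, adjusted p = 0.105). The overlap came from skin 2, and without that array Cox7a2 passed as lower in pituitary (-0.77, adjusted p = 0.0320). Cox8b, the muscle form of subunit 8, had 12, 9 and 11 in pituitary against 168, 187 and 118 in skin. Its pituitary values lie among the lowest of the arrays, so the difference is a lower bound: with intensities under 16 set to 16, Cox8b was at least 9.67-fold lower in pituitary (adjusted p = 2.93e-07). Cox8a, the common form, had 60687, 55227 and 61801 in pituitary against 21304, 19356 and 23794 in skin. No array of one tissue reached those of the other, and the log2 fold change was 1.47 ± 0.20 (adjusted p = 2.17e-06).

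Both genes of the Ndufa4 family were lower in wild-type pituitary. Ndufa4 had 14793, 17416 and 16344 in pituitary against 110682, 63791 and 54379 in skin (-2.17 ± 0.24, adjusted p = 1.11e-07). Ndufa4l2, a paralog known to be induced by low oxygen, had 28, 30 and 26 against 326, 307 and 236 (-3.36 ± 0.23, adjusted p = 8.07e-11). Among the remaining pairs, the common form Cox4i1 and the lung form Cox4i2 were both lower in pituitary (-0.80 ± 0.26 and -0.74 ± 0.22, adjusted p = 0.0116 and 0.00788). The call of Cox4i1 was lost without skin 1 (-0.69) or pituitary 10 (-0.71), and that of Cox4i2 without skin 3 (-0.55). Cox7b was lower (-1.58 ± 0.22, adjusted p = 2.39e-06), and so was Cox5a (-1.02 ± 0.22, adjusted p = 0.000539). The testis form Cox6b2 had 64, 61 and 87 in pituitary against 16, 13 and 14 in skin and was at least 4.36-fold higher, with the same floor of 16 (adjusted p = 6.06e-05). For Cox6b1, Cox7b2, Cox7c, Cox5b and Cox8c the adjusted p lay between 0.292 and 0.985. The log2 fold change of Cox7c was 0.01 ± 0.19, but it passed as higher in pituitary with quantile normalization (0.43, adjusted p = 0.0476).

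**Figure D2:**
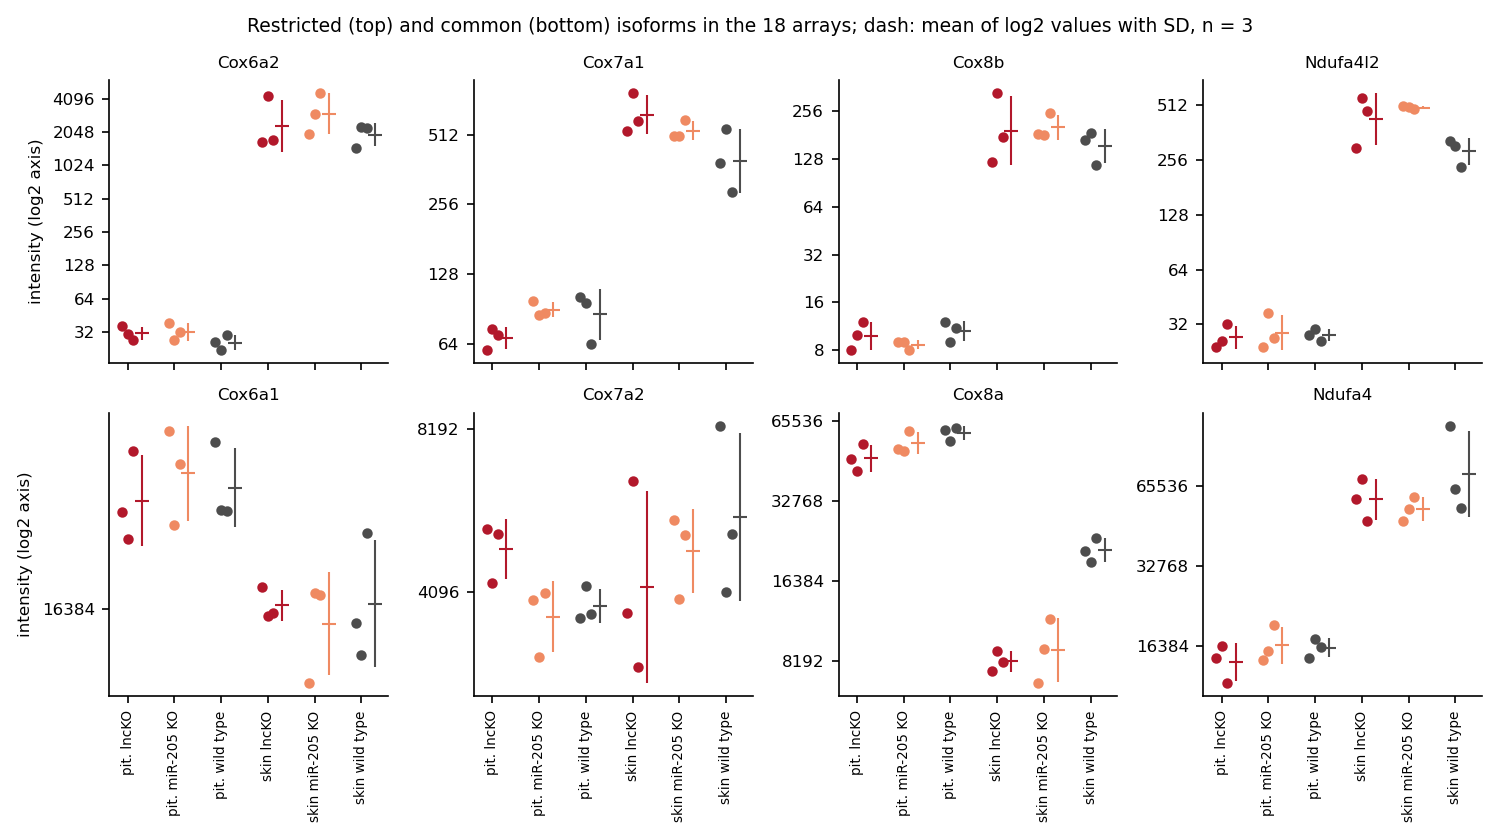
Intensity of 4 tissue-restricted forms (top) and their common forms (bottom) on each of the 18 arrays, on log2 axes that differ between panels. Dashes with bars are means of log2 values with SD (n = 3 per group). Each top panel shows the 9 pituitary arrays below the 9 skin arrays, and Cox8a shows the reverse.

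The knockouts showed the same separation of the tissues for Cox6a2, which had 36, 31 and 27 in lncKO and 39, 27 and 32 in miR-205 KO pituitary, against 1650, 4357 and 1752 in lncKO and 1979, 2976 and 4622 in miR-205 KO skin. Over the 6 group means, the members closest to Cox6a2 by Pearson correlation were Cox7b (0.998), Cox8b and Ndufa4l2 (0.997 each), and those closest to Sdha were Cox6a1 (0.997) and Atp5g1 (0.993). With 6 points in 2 tissues these coefficients mostly restate the tissue difference.

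In complex II, Sdha, the flavoprotein that oxidizes succinate, had 1803, 1782 and 1999 in wild-type pituitary against 387, 565 and 524 in wild-type skin. The groups did not overlap, and the log2 fold change was 1.94 ± 0.19 (adjusted p = 2.51e-08). The iron-sulfur subunit gene Sdhb and the membrane anchors Sdhc and Sdhd had log2 fold changes of -0.39 ± 0.28, -0.15 ± 0.20 and -0.11 ± 0.23, and none passed the test (adjusted p = 0.268, 0.565 and 0.743).

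ATP synthase had 3 members higher, 5 lower and a median of 0.02. Atp5g1, 1 of the genes that encode the identical mature c subunit of the membrane ring, had 65919, 68459 and 66949 in pituitary against 13845, 12932 and 17190 in skin (2.21 ± 0.20, adjusted p = 5.04e-09). Atp5g2, another of them, was also higher (1.11 ± 0.22, adjusted p = 0.000236). Atp5d, the delta subunit of the central stalk, was higher by 0.73 ± 0.26 (adjusted p = 0.0245), a call lost without skin 1 (0.72), skin 2 (0.57) or pituitary 10 (0.64). Lower were Atp5k (subunit e), with 50, 41 and 55 against 149, 121 and 105 (-1.36 ± 0.27, adjusted p = 0.000228), and Atp5o (the stalk protein OSCP), with 2834, 3271 and 3587 against 9185, 7699 and 7261 (-1.32 ± 0.19, adjusted p = 5.96e-06). The alpha and beta subunit genes Atp5a1 and Atp5b differed by 0.38 ± 0.18 and 0.33 ± 0.20 and missed the threshold (adjusted p = 0.0748 and 0.175). Both passed with quantile normalization (0.78 and 0.70, adjusted p = 0.00115 and 0.00497). Atp5a1 also passed with arrays centred on their medians, with the floor of 16 and with a variance trend and robust estimation (adjusted p = 0.0475, 0.0137 and 0.0214).

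Of the 36 complex I genes, 5 were higher and 7 lower, with a median of -0.13. The iron-sulfur subunit gene Ndufs8 was higher, at 11402, 15004 and 14759 in pituitary against 6600, 5681 and 6370 in skin (1.13 ± 0.22, adjusted p = 0.000133). So were the accessory subunit genes Ndufa1 (1.30 ± 0.25, adjusted p = 0.000185), Ndufa2 (1.31 ± 0.31, adjusted p = 0.00114) and Ndufv3 (0.95 ± 0.32, adjusted p = 0.0174), the last of which lost its call without skin 1 (0.84), skin 2 (0.76) or pituitary 10 (0.77). The accessory subunit gene Ndufa5 had 1671, 1737 and 2132 against 4973, 4233 and 3840 (-1.24 ± 0.21, adjusted p = 3.31e-05), and Ndufc2 was lower by a similar amount (-1.07 ± 0.23, adjusted p = 0.000601). Among the 9 complex III genes only Uqcrb, a small subunit, was called, and it was lower (-0.85 ± 0.24, adjusted p = 0.00446). That call was lost with quantile normalization (-0.42, adjusted p = 0.151). It was chosen here after its values were seen. The genes Cyc1, Uqcrc2 and Uqcrfs1 did not pass the test.

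Other genes of energy metabolism and of the cells in each tissue were read from lists, where 52.1% of all probe sets passed. All 19 skeletal muscle markers were lower in wild-type pituitary, with mean log2 intensities of 5.12 to 5.20 in pituitary arrays and 11.39 to 12.21 in skin arrays. The myosin light chain Myl1 averaged 3.81 in pituitary and 15.51 in skin. The part of muscle in the differences of Cox6a2, Cox7a1 and Cox8b was not tested, and in bulk tissue fewer cells of a type and less RNA per cell cannot be told apart. Glycolytic genes were mostly higher in pituitary, 10 of 15 with 3 lower and a median of 0.85, among them the brain-type aldolase Aldoc (5.22 ± 0.43, adjusted p = 1.73e-09) and the neuronal enolase Eno2 (3.56 ± 0.24, adjusted p = 5.19e-11). Of 16 genes of fatty acid oxidation 3 were higher and 9 lower, with Acadm, a medium-chain acyl-CoA dehydrogenase, at -2.24 ± 0.27 (adjusted p = 5.00e-07). Of 45 assembly factors of the chain 13 were higher and 9 lower. The copper chaperone Cox17 was higher (2.31 ± 0.23, adjusted p = 2.45e-08), and Acad9, an acyl-CoA dehydrogenase that serves in complex I assembly, was lower (-2.88 ± 0.19, adjusted p = 5.81e-11). The tricarboxylic acid cycle had 3 of 13 genes higher and 5 lower, pyruvate dehydrogenase and its kinases 2 of 10 higher and 4 lower, regulators of mitochondrial biogenesis 3 of 14 higher and 5 lower, and electron carriers and mitochondrial transport 5 of 16 in each direction. Ppargc1a, a coactivator of mitochondrial biogenesis, was higher in pituitary (0.99 ± 0.26, adjusted p = 0.00303).

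In pituitary, neither knockout moved a member past the threshold. In lncKO against wild type, 0 of 86 members passed in limma, where 0.7% of all probe sets did, and 4 had an unadjusted p under 0.05, where 12.5% of all did. The arrays did not overlap for 16 members, against 16.8% of all. The lowest adjusted p was that of Cox7a2l, a protein of respiratory supercomplexes, at 0.0989. It had 11884, 9765 and 9044 in lncKO, against 15207, 17701 and 16333 in wild type. All lncKO arrays lay below all wild-type arrays (-0.69 ± 0.17), and the gene is named here after its values were seen. In miR-205 KO against wild type 0 members passed, where 0.107% of all probe sets did, 3 had an unadjusted p under 0.05, where 7.47% of all did, and 8 did not overlap, against 10.5% of all. The lowest adjusted p there was 0.368, for Cox4i2, which had 29, 21 and 23 in miR-205 KO against 33, 42 and 46 in wild type (-0.73 ± 0.19).

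The intervals of these pituitary contrasts bound what may have been missed. In lncKO the 95% interval of 80 of the 86 members lay within a 2-fold change, and the widest limits were -1.11 for Cox7b2 and 1.28 for Cox6b2. In miR-205 KO this held for 84 members, with limits of -1.15 for Cox4i2 and 0.88 for Cox8c. The members' median log2 fold change was -0.03 in lncKO and 0.001 in miR-205 KO, against 0.01 for all probe sets in each. The 2 knockouts share the wild-type arrays, so their values are not independent. Between lncKO and miR-205 KO pituitary 0 members passed, where 0.291% of all probe sets did. An unadjusted p under 0.05 was found for 6 members, against 11.1% of all, and 17 did not overlap, against 15.9% of all. The lowest adjusted p was 0.109 (Cox4i2, 0.82 ± 0.19).

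**Figure D3:**
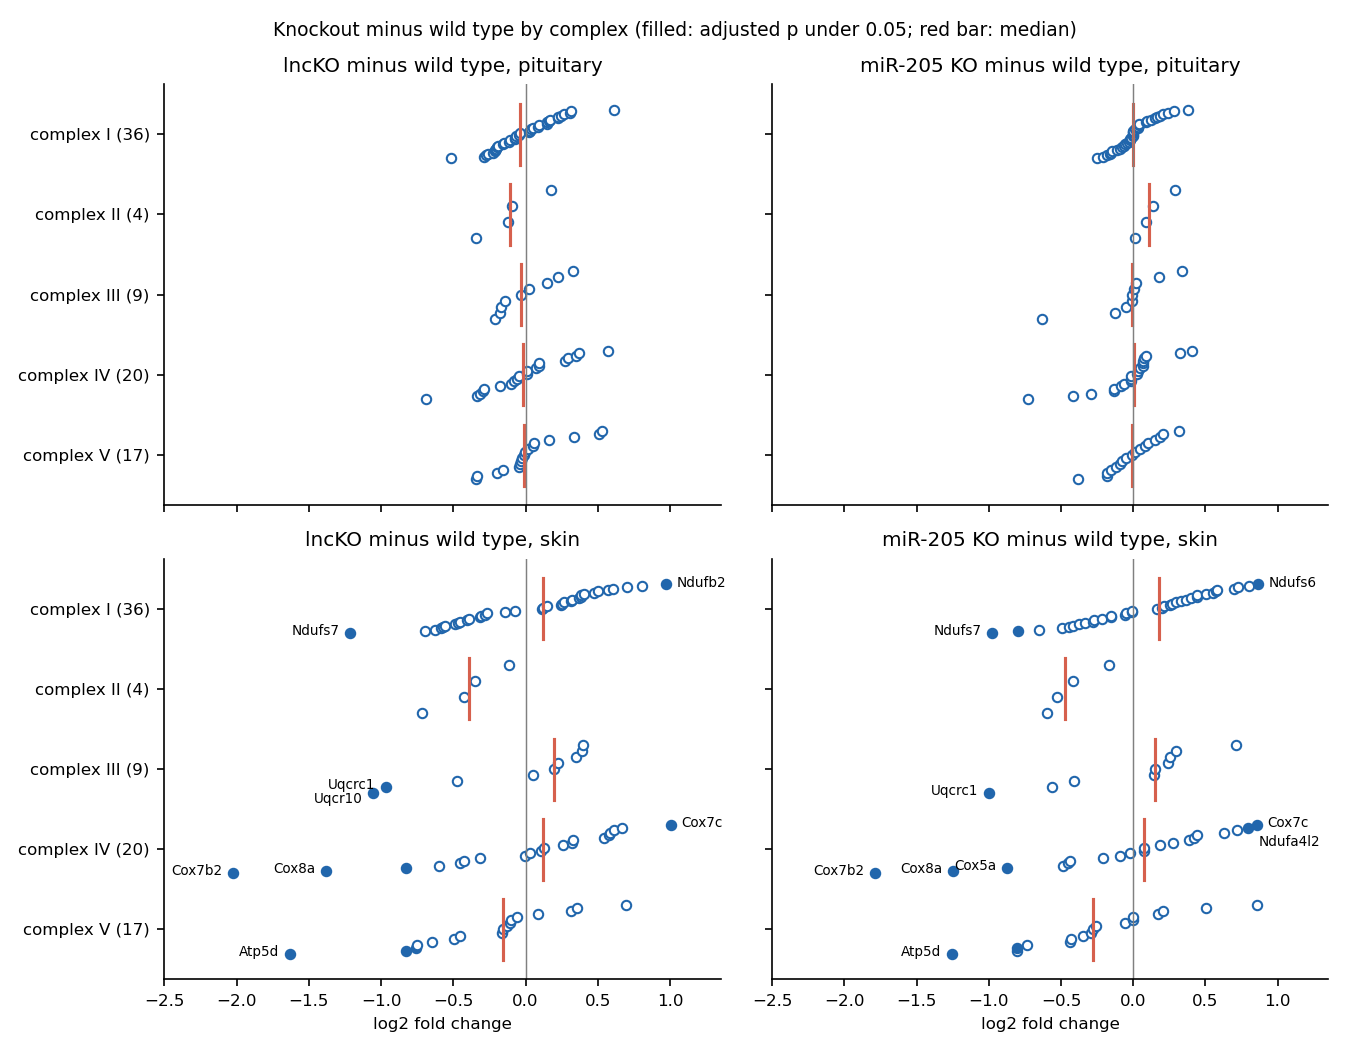
Log2 fold change of each member in knockout over wild type by complex, with lncKO on the left, miR-205 KO on the right, pituitary in the top row and skin below (3 arrays per group). Filled points passed an adjusted p of 0.05 and red bars are medians; no pituitary point is filled, and 11 points are filled in each skin panel.

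In skin, a small group of members was lower in both knockouts, led by Cox7b2, Cox8a and Atp5d, while Cox7c was higher in both. The share of members called lower, 10.5% in lncKO and 9.3% in miR-205 KO, was near that of all probe sets. The rank of Cox7b2 rests on knockout intensities of 10 to 16. The call of Cox7c in miR-205 KO was lost with quantile normalization (0.52, adjusted p = 0.105). In lncKO against wild type, 11 of the 86 members passed, 2 higher and 9 lower, against 15.4% of all probe sets (6.21% higher, 9.17% lower). In miR-205 KO against wild type, 11 passed, 3 higher and 8 lower, against 16.8% of all (6.79% higher, 10% lower). In both contrasts a smaller share of the members than of all probe sets passed, but without lncKO 5 the order turned in lncKO, with 15 of 86 members against 11.1% of all probe sets. The members' median log2 fold change was -0.07 in lncKO and -0.01 in miR-205 KO, and that of all probe sets was -0.07 in each. With quantile normalization the split was 4 higher and 8 lower in lncKO, and with arrays centred on their medians it was 3 higher and 5 lower in miR-205 KO.

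Complex IV gave the widest range. Cox8a, the common form of subunit 8, had 7507, 8998 and 8163 in lncKO skin and 6797, 9128 and 11830 in miR-205 KO skin, against 21304, 19356 and 23794 in wild-type skin. All 6 knockout arrays lay below all wild-type arrays, and the log2 fold changes were -1.38 ± 0.24 in lncKO and -1.25 ± 0.24 in miR-205 KO (adjusted p = 0.00272 and 0.00461). Its muscle counterpart Cox8b had 123, 334 and 176 in lncKO and 183, 181 and 250 in miR-205 KO, against 168, 187 and 118 in wild type. Those arrays overlapped, with differences of 0.32 ± 0.33 and 0.39 ± 0.33 (adjusted p = 0.543 and 0.453).

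Cox7c, a small accessory subunit of complex IV, was higher, with 358730, 434958 and 335936 in lncKO and 300201, 328588 and 385872 in miR-205 KO, against 236979, 170127 and 160149 in wild type. No knockout array overlapped wild type, and the log2 fold changes were 1.01 ± 0.23 and 0.85 ± 0.23 (adjusted p = 0.0118 and 0.0233). The testis form Cox7b2 had 15, 10 and 10 in lncKO and 11, 16 and 14 in miR-205 KO, against 63, 33 and 49 in wild type. Its knockout values lie among the lowest of the arrays, and with intensities under 16 set to 16 it was at least 2.92-fold lower in each knockout (adjusted p = 0.0103 and 0.0100). In the other isoform families, Cox6a2, Cox6a1, Cox7a1 and Cox7a2 did not pass in either knockout. Cox7a1 came closest in lncKO, where it had 533, 776 and 586 against 388, 544 and 288 in wild type (0.67 ± 0.26, adjusted p = 0.0999), and its arrays overlapped by 1 wild-type value. It passed with quantile normalization (0.79, adjusted p = 0.0404), with a fit of all 18 arrays (adjusted p = 0.0468) and without wild type 2 (0.90, adjusted p = 0.0468).

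Among the complex IV genes, those called in 1 knockout only were Cox7a2l in lncKO (-0.83 ± 0.24, adjusted p = 0.0361) and, in miR-205 KO, Cox5a (-0.87, adjusted p = 0.0304) and Ndufa4l2. Ndufa4l2 had 506, 500 and 489 in miR-205 KO skin, against 326, 307 and 236 in wild-type skin (0.80 ± 0.26, adjusted p = 0.0492). In lncKO skin it had 298, 566 and 475, which overlapped wild type (0.59 ± 0.26, adjusted p = 0.138). A call in 1 knockout does not show that the knockouts differ, and no member differed between them by the test given below.

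In ATP synthase, Atp5d, the delta subunit of the central stalk, had 3911, 6017 and 5241 in lncKO and 4741, 10104 and 5629 in miR-205 KO, against 15224, 12355 and 19528 in wild type. Every knockout array lay below the lowest wild-type array, and the log2 fold changes were -1.63 ± 0.30 and -1.26 ± 0.30 (adjusted p = 0.00412 and 0.0141). The gamma subunit gene Atp5c1 had 15875, 26581 and 16521 in lncKO and 16873, 20153 and 18728 in miR-205 KO, against 33184, 33030 and 30881 in wild type. The groups did not overlap here either (-0.76 ± 0.23 and -0.80 ± 0.23, adjusted p = 0.0444 and 0.0340). The c-subunit gene Atp5g2 was called in lncKO (-0.83, adjusted p = 0.0370). In miR-205 KO it was not called (-0.74), though its 9597, 13255 and 12215 lay below the 19734, 15424 and 23697 of wild type. There it passed with quantile normalization (adjusted p = 0.0399), a variance trend with robust estimation (0.0333), a fit of all 18 arrays (0.0213) and without wild type 2 (0.0455). Of the 17 complex V genes 13 were negative in lncKO and 12 in miR-205 KO, with medians of -0.16 and -0.28, but only 3 and 2 of them passed.

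In complex III, the core protein gene Uqcrc1 had 754, 1502 and 876 in lncKO and 792, 910 and 1281 in miR-205 KO, against 1859, 1927 and 2064 in wild type. The knockout arrays spread widely but all lay below wild type (-0.97 ± 0.28 and -1.0 ± 0.28, adjusted p = 0.0336 and 0.0270). Uqcr10, a small subunit of the same complex, had 745, 739 and 808 in lncKO and 1056, 892 and 1305 in miR-205 KO, against 1776, 1650 and 1356 in wild type, and passed in lncKO (-1.05 ± 0.22, adjusted p = 0.00776) but not in miR-205 KO (-0.56 ± 0.22, adjusted p = 0.0952).

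In complex I, Ndufs7, the iron-sulfur subunit beside the ubiquinone site, had 1299, 1451 and 1417 in lncKO and 929, 2062 and 2263 in miR-205 KO, against 2845, 3820 and 3057 in wild type. It passed in both, at -1.21 ± 0.30 and -0.98 ± 0.30 (adjusted p = 0.0183 and 0.0432). The accessory gene Ndufb2 was higher in lncKO, with 2846, 3976 and 1875 against 1776, 1299 and 1218 in wild type (0.97 ± 0.28, adjusted p = 0.0354). The accessory gene Ndufs6 was higher in miR-205 KO, with 5590, 4520 and 6053 against 3827, 2342 and 2842 (0.86, adjusted p = 0.0320), and Ndufa7 was lower there (-0.80, adjusted p = 0.0424). Ndufa7 and Cox7a2l are named after their values were seen. No complex II gene passed. All 4 were negative in both knockouts, which share the wild-type arrays. Their mean log2 intensity was 9.66 to 10.58 in lncKO, 9.88 to 10.26 in miR-205 KO and 10.41 to 10.54 in wild type. The highest value, that of lncKO 5, lay above wild type. The largest differences were those of Sdhc, at -0.72 ± 0.24 in lncKO and -0.60 ± 0.24 in miR-205 KO (adjusted p = 0.0639 and 0.109). Sdhc passed in both with a fit of all 18 arrays (adjusted p = 0.0159 and 0.0382).

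**Figure D4:**
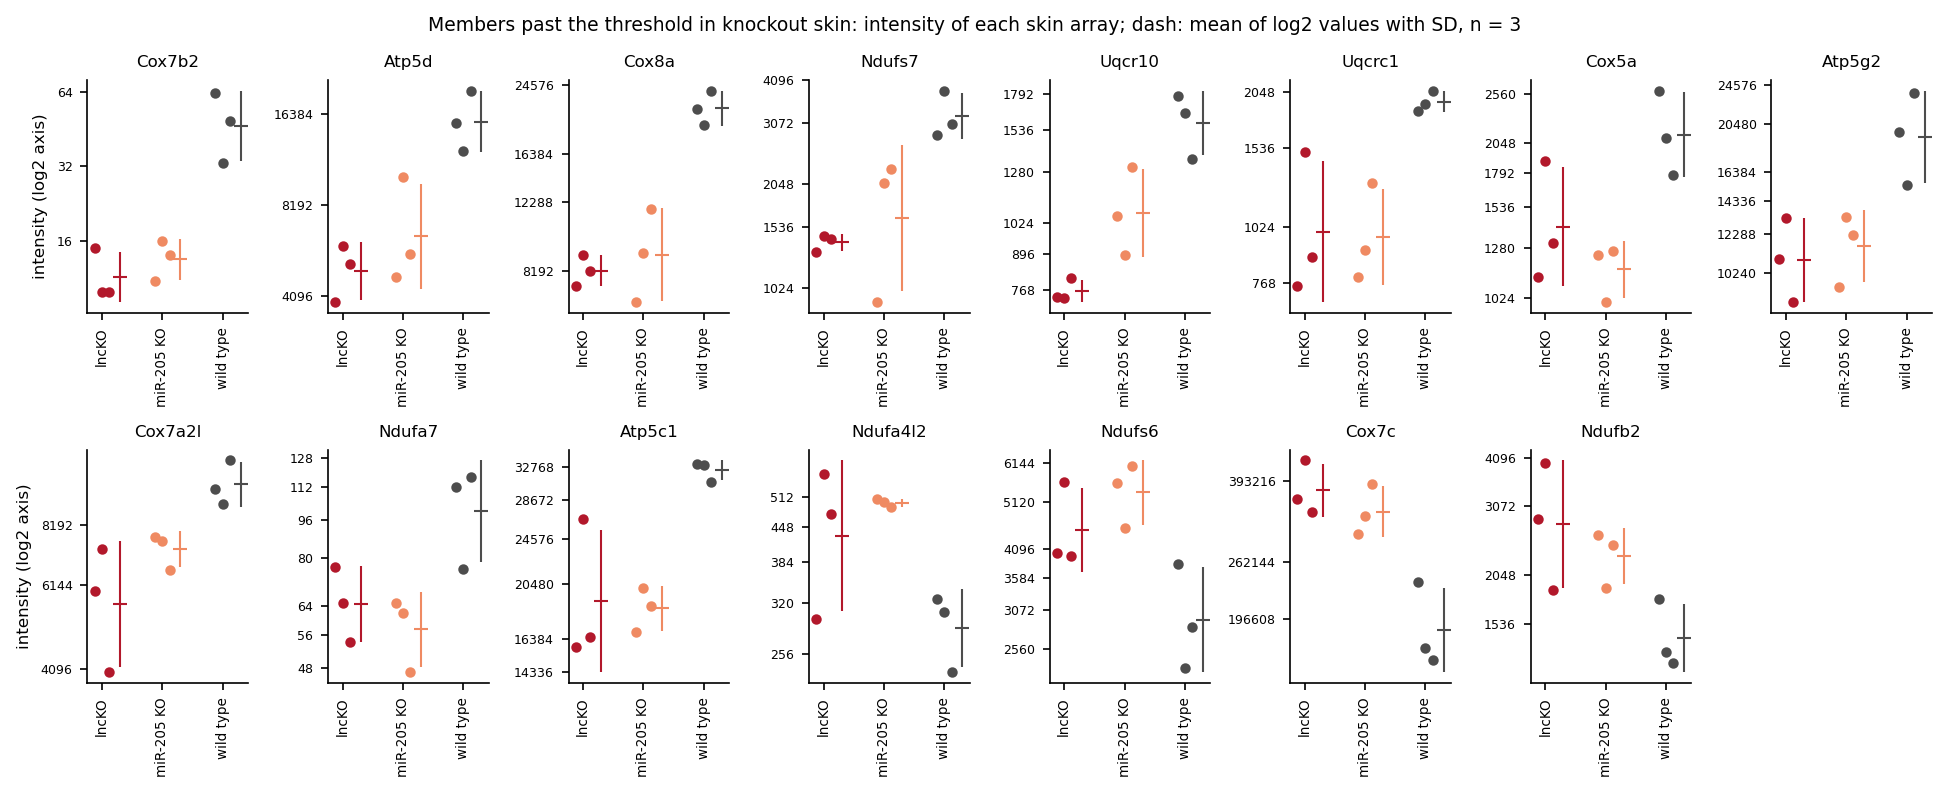
Intensity of the 15 members called in at least 1 skin knockout on each skin array, on log2 axes that differ between panels and do not start at 0. Dashes with bars are means of log2 values with SD (n = 3 per group). In the panels of Cox8a, Atp5d and Uqcrc1 the 6 knockout points lie below the 3 wild-type points, and in that of Cox7c above them.

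The calls differed in how far they rested on single arrays. In lncKO skin the calls of Cox7b2, Atp5d, Cox8a, Uqcr10 and Cox7c held with each of the 6 arrays left out in turn, while that of Ndufs7 was lost without wild type 2 (-1.09) or lncKO 4 (-1.16). Ndufb2 lost its call when lncKO 4, lncKO 5, wild type 2 or wild type 3 was left out (0.71 to 1.25 over all 6), and Atp5g2 when lncKO 4, lncKO 6, wild type 1 or wild type 3 was (-0.99 to -0.68). Uqcrc1 (-1.26 to -0.76), Atp5c1 (-1.0 to -0.63) and Cox7a2l (-1.02 to -0.59) kept theirs only without lncKO 5. The number of members called was 6 without lncKO 4, 7 without lncKO 6, wild type 2 or wild type 3, 8 without wild type 1, and 15 without lncKO 5, of which 1 was higher and 14 lower. With intensities under 16 set to 16, the calls of Ndufs7, Ndufb2, Uqcrc1, Atp5g2, Cox7a2l and Atp5c1 were lost (adjusted p = 0.0612 to 0.0957). These genes lay above 16 on every array and kept their log2 fold changes. Only the variance estimate and the p adjustment shared with other probe sets changed. All of these calls but that of Ndufs7 were also lost in a fit of the compared groups only. Those of Atp5c1, Atp5g2 and Cox7a2l were lost with arrays centred on their medians, and that of Uqcrc1 with quantile normalization.

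In miR-205 KO skin (arrays 7 to 9, with wild type 1 to 3) the calls of Cox7b2 and Cox8a held without each array, and that of Atp5d was lost without miR-205 KO 7 (-1.03) or miR-205 KO 9 (-1.16). Cox7c lost its call without array 2, 3, 8 or 9 (0.74 to 1.03 over all 6), Uqcrc1 without array 2, 3, 7 or 8 (-1.20 to -0.85), and Ndufs6 without array 2, 3, 7 or 9 (0.70 to 1.05). Ndufs7 (-1.22 to -0.57, the last without miR-205 KO 7) kept its call only without miR-205 KO 9, Cox5a (-1.0 to -0.73) only without wild type 3 and Ndufa7 (-1.0 to -0.65) only without wild type 2. Atp5c1 and Ndufa4l2 lost theirs whichever array was left out. With intensities under 16 set to 16, the calls of Atp5d, Cox5a, Ndufa4l2, Ndufa7, Ndufs6, Ndufs7 and Uqcrc1 were lost (adjusted p = 0.0607 to 0.122). These genes too lay above 16 on every array and kept their log2 fold changes, so again only the shared variance estimate and adjustment changed. Quantile normalization ended the calls of Cox5a, Cox7c, Ndufa7 and Ndufs7 (adjusted p = 0.0642 to 0.105). Centring ended the calls of Atp5c1, Ndufa7 and Ndufs7, a fit of the compared groups only those of Ndufa7 and Ndufs7, and a variance trend with robust estimation those of Ndufa4l2 and Ndufa7. The number of members called was 3 without miR-205 KO 7, 4 without miR-205 KO 9, 5 without miR-205 KO 8, wild type 2 or wild type 3 and 6 without wild type 1.

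Counted by arrays alone, 20 members did not overlap between lncKO and wild-type skin, where 31.5% of all probe sets did not, and 39 did not overlap between miR-205 KO and wild-type skin, where 34.9% of all did not. Of the 11 members called in each knockout 7 were called in both, 6 lower and 1 higher. Because both contrasts use the same 3 wild-type arrays, this overlap is no independent support. Between lncKO and miR-205 KO skin, a contrast without wild-type arrays, 0 members and 0% of all probe sets passed in limma. Of the members 2 had an unadjusted p under 0.05, Ndufb10 (-0.62 ± 0.26) and Uqcr10 (-0.49 ± 0.22), against 3.25% of all (637 of 19572), and 1 did not overlap, against 7.32% of all. The 95% interval lay within a 2-fold change for 77 of the 86 members, with widest limits of -1.24 for Atp5e and 0.97 for Cox8c. Ndufb10, Atp5e and Cox8c are named here for their place in these ranges.

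Cell type markers were also read in the skin knockouts, where 15.4% of all probe sets passed in lncKO and 16.8% in miR-205 KO. The array means of the muscle and white adipocyte lists overlapped between each knockout and wild type. Of 19 skeletal muscle markers 5 were higher and 1 lower in lncKO, and 6 were higher and 0 lower in miR-205 KO, with means over the list of 11.57 to 13.10 in lncKO, 12.07 to 12.81 in miR-205 KO and 11.39 to 12.21 in wild type (log2). Myoglobin (Mb) was higher by 2.25 ± 0.32 and 2.12 ± 0.32 (adjusted p = 0.000918 and 0.00128). White adipocyte markers were higher for 4 of 8 and lower for 0 in each knockout (list means 11.98 to 12.75 in lncKO, 11.93 to 12.89 in miR-205 KO and 10.39 to 12.03 in wild type), and cartilage markers for 6 and 5 of 9 (9.06 to 9.69 in lncKO, 9.13 to 9.32 in miR-205 KO and 7.79 to 8.47 in wild type). Of 9 keratinocyte markers 2 were higher and 1 lower in each knockout (15.73 to 15.95 in lncKO, 15.84 to 16.07 in miR-205 KO and 15.70 to 15.75 in wild type). Of 8 brown adipocyte markers 1 was higher and 1 lower in lncKO, and 2 were higher and 0 lower in miR-205 KO (list means 7.37 to 7.76 in lncKO, 7.67 to 7.87 in miR-205 KO and 7.36 to 7.48 in wild type), and Ucp1, the brown fat uncoupling protein, stayed near the lowest intensities in every skin group (3.20, 3.43 and 3.16). Of 2 erythroid markers 0 passed in either knockout. Of the 12 pituitary endocrine markers 1 was higher and 3 lower in lncKO skin, and 1 was higher and 4 lower in miR-205 KO skin (list means 3.65 to 3.73 in lncKO, 3.58 to 3.70 in miR-205 KO and 4.05 to 5.16 in wild type). The knockout means lie under log2 4, an intensity of 16, and the highest wild-type mean is that of wild-type skin 1. The part of these marker differences in the results on the members was not tested.

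**Figure D5:**
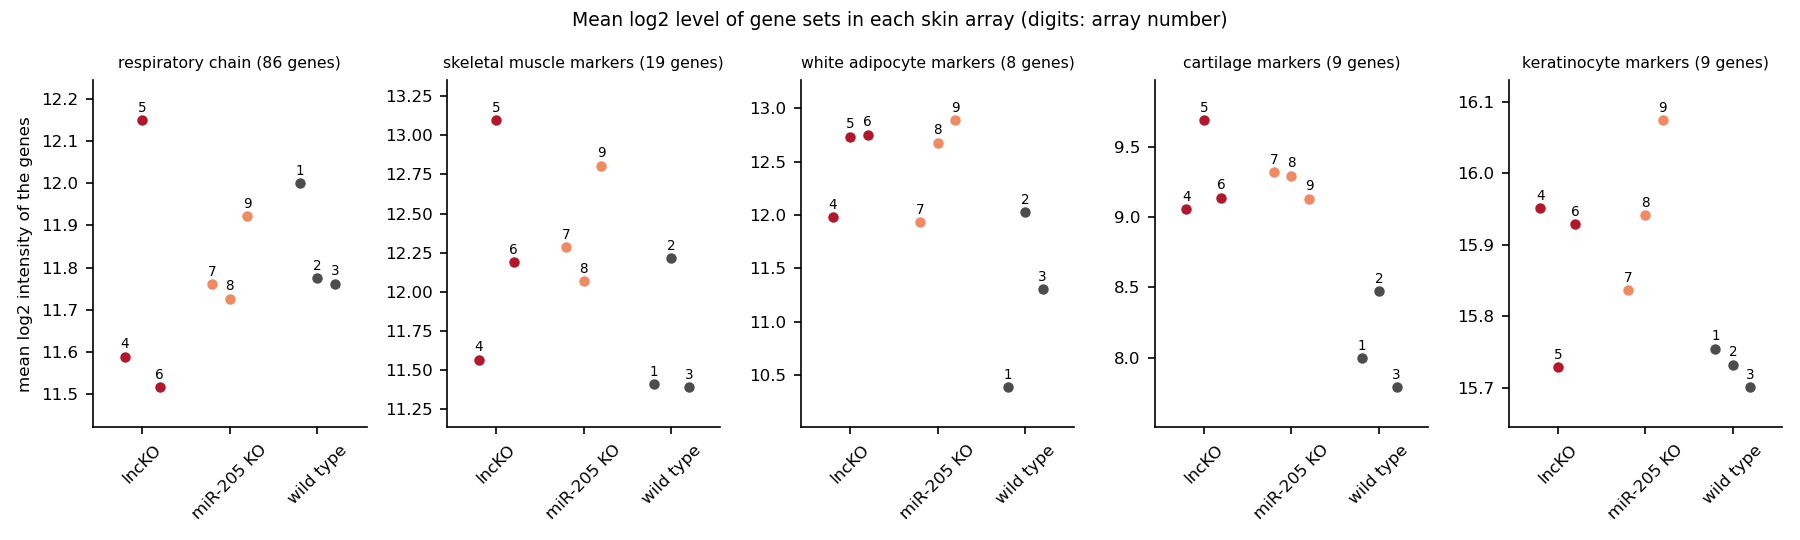
Mean log2 intensity of the 86 members and of 4 marker lists on each skin array (digits give the array number), by genotype, on axes that do not start at 0. The members overlap between genotypes, while the cartilage list is higher on all 6 knockout arrays than on the 3 wild-type arrays; lncKO 5 is the highest array for the members and for the muscle list.

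Among related pathways in skin, single genes passed in both directions, where 15.4% of all probe sets passed in lncKO and 16.8% in miR-205 KO. Of 45 assembly factors 3 were higher and 7 lower in lncKO, and 2 were higher and 7 lower in miR-205 KO. Ndufaf3, a complex I assembly factor, was lower by a log2 fold change of -1.88 ± 0.24 in lncKO and -1.74 ± 0.24 in miR-205 KO (adjusted p = 0.000538 and 0.000828), and so was Tmem70, which serves ATP synthase assembly (-1.29 ± 0.22 and -1.23 ± 0.22, adjusted p = 0.00267 and 0.00351). Cox17 was higher (1.26 ± 0.26 and 1.18 ± 0.26, adjusted p = 0.0068 and 0.00873). In the tricarboxylic acid cycle 1 of 13 genes was higher and 1 lower in each knockout: the dihydrolipoamide dehydrogenase Dld (0.89 and 0.92) was higher and citrate synthase Cs (-1.12 in each) was lower. Glycolysis had 0 of 15 genes higher and 3 lower in lncKO, and 1 higher and 3 lower in miR-205 KO, with Pgam1, a phosphoglycerate mutase, at -1.51 in each. Fatty acid oxidation had 1 of 16 higher and 1 lower in lncKO, and 0 higher and 2 lower in miR-205 KO, with Acadm at -1.07 and -1.10. Electron carriers and mitochondrial transport had 2 of 16 higher and 1 lower in lncKO, and 2 in each direction in miR-205 KO. Of 14 regulators of mitochondrial biogenesis 0 passed in lncKO and 1 in miR-205 KO, Gabpa, an ETS factor that binds promoters of respiratory genes (0.83, adjusted p = 0.0256). Ppargc1a did not pass in either (0.28 ± 0.27 and 0.67 ± 0.27, adjusted p = 0.52 and 0.109). Pyruvate dehydrogenase and its kinases had 0 of 10 called in lncKO, and 1 higher and 1 lower in miR-205 KO. In pituitary the list genes past the threshold in lncKO were Pdk4, a pyruvate dehydrogenase kinase (3.06, adjusted p = 0.0123), and the Y-linked Eif2s3y (-1.08, adjusted p = 0.0283), and in miR-205 KO there were 0.

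The difference of each knockout effect between the tissues was tested over all 18 arrays. It is the log2 fold change in pituitary minus that in skin, so a decrease in skin alone gives a positive value. In lncKO 7 members passed, 5 with a positive and 2 with a negative difference, where 9.25% of all probe sets passed (5.88% and 3.37%). In miR-205 KO 4 passed, all with a positive difference, where 9.95% of all did (6.26% positive, 3.69% negative). These 4 were called lower in skin and not called in pituitary. With arrays centred on their medians, 3 of these calls were kept, that of Atp5d was lost (1.05, adjusted p = 0.0728) and Cox7c was gained with a negative difference (-0.91, adjusted p = 0.0479). With intensities under 16 set to 16 the call of Cox7b2 was lost in both knockouts (adjusted p = 0.167 in lncKO and 0.0908 in miR-205 KO). Cox7b2, Uqcrc1, Atp5d and Cox8a passed in both. For Atp5d the log2 fold change was 0.16 ± 0.19 in lncKO pituitary, against -1.63 ± 0.30 in lncKO skin, a difference of 1.79 ± 0.37 (adjusted p = 0.00526). The median of this difference over all probe sets moved by over 0.1 with the scaling, being 0.08 as reported and -0.03 with arrays centred on their medians in lncKO, and 0.08 and -0.04 in miR-205 KO.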

How the data were processed

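RNA of 18 samples was hybridised to Clariom S arrays. The deposited values are intensities on a linear scale, as whole numbers, 1 per probe set and array. How the authors made these intensities from the scans is not given in the sources used here, and a background correction or summarisation may have compressed low values. Of 22206 probe sets, 19572 carry 1 gene symbol in the platform annotation and 2634 carry none, and the unnamed ones were left out. Intensities were log2-transformed with no pseudocount and not normalized again. Groups were compared with limma 3.58.1 in R 4.3.3 (lmFit, contrasts and eBayes), and p-values were adjusted by Benjamini and Hochberg's method over all 19572 named probe sets, with a threshold of 0.05. Contrasts within a tissue came from the 9 arrays of that tissue (6 residual degrees of freedom), and pituitary against skin and differences of effects from all 18 (12 residual degrees of freedom). The fits were tested on simulated data. With 3 arrays per group, their number limits the precision. Alternatives were quantile normalization, centring on array medians, a floor of 16, a filter on low values, a variance trend with robust estimation, fits of other sets of arrays and leaving out each array.

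The members and gene lists were chosen with earlier results of these data known. Named were the members with the highest and lowest log2 fold changes past the threshold (up to 6 each way for knockouts, 10 for the tissues, 4 for differences of effects), the isoform pairs, the Sdh genes, core subunits, and up to 3 genes of each other list with the smallest p. Genes named outside this rule were chosen after their values were seen. Promoter windows came from RefSeq (GRCm38.p6), with both strands searched.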

Additional observations from a re-analysis of the deposited data

Results flagged for a closer look

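For 11 results the effect of a knockout differed between pituitary and skin by a test of the difference itself (limma over all 18 arrays, effect in pituitary minus effect in skin on the log2 scale, adjusted p given). Both effects of a tissue use the same wild-type arrays, so the lncKO and miR-205 KO values are not independent.

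In lncKO, the difference was 1.7913 ± 0.37 for Atp5d (adjusted p = 0.00526), 1.279 ± 0.27 for Uqcr10 (0.00658), 1.2942 ± 0.33 for Uqcrc1 (0.0181), 1.067 ± 0.28 for Cox8a (0.0220) and 1.7373 ± 0.50 for Cox7b2 (0.0331). It ran the other way for Ndufb2, at -1.4891 ± 0.36 (0.0143), and for Cox7c, at -0.9371 ± 0.27 (0.0352). In skin these genes were called in lncKO, and in pituitary none was, with log2 fold changes there of 0.16 for Atp5d, 0.23 for Uqcr10, 0.33 for Uqcrc1, -0.32 for Cox8a, -0.29 for Cox7b2, -0.52 for Ndufb2 and 0.07 for Cox7c. The calls of Cox7b2, Cox7c and Cox8a were lost without some arrays, Cox8a without pituitary wild type 11 or pituitary lncKO 15. Over 12 fits with 1 array left out, the call was kept in 4 for Cox7c, 6 for Cox7b2 and 10 for Cox8a. Cox7b2 lay at intensities of 10 to 15 in lncKO skin, and with values under 16 set to 16 its difference was 1.25 and not called (adjusted p = 0.167).

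In miR-205 KO, the difference was 1.1141 ± 0.28 for Cox8a (adjusted p = 0.0168), 1.7771 ± 0.50 for Cox7b2 (0.0280), 1.1812 ± 0.33 for Uqcrc1 (0.0280) and 1.1805 ± 0.37 for Atp5d (0.0488). The pituitary log2 fold changes were -0.13, -0.01, 0.18 and -0.08 in that order, and none was called. Cox7b2 lay at 11 to 16 in miR-205 KO skin, and with the same floor its difference was 1.53 and not called (adjusted p = 0.0908). Atp5d lost its call with that floor (adjusted p = 0.0752) and with arrays centred on their medians (1.05, adjusted p = 0.0728), and Uqcrc1 with quantile normalization (0.99, adjusted p = 0.0539). With the floor the difference of Atp5d stayed at 1.1805, because the gene lay above 16 on every array. Of the 4, only the call of Cox8a was kept under every alternative and with each array left out. Over 12 fits with 1 array left out, the call was kept in 2 for Atp5d, 6 for Uqcrc1 and 7 for Cox7b2.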

How the results depend on the processing

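No paired analysis was made, because the labels only number the samples from 1 to 18 and do not say which of them share a mouse. Of the counts of called members under the alternatives, 101 stayed within a ratio of 1.5 to the reported count and 22 did not. A count of 0 was matched only by 0, and directions were not compared. Many of the 101 are counts of 0 against a reported 0, in the pituitary contrasts and between the knockouts in skin. In miR-205 KO against wild type in skin, none of the fits with 1 array left out stayed within the ratio. In pituitary against skin the balance turned, from 13 higher and 23 lower to 22 higher and 18 lower with quantile normalization. In lncKO against wild type in skin, 11 members became 6 with a floor of 16, 6 with a fit of the compared groups only and 18 with a fit of all 18 arrays, and 6 to 15 with 1 array left out. In miR-205 KO against wild type in skin, 11 became 5 with the floor and 19 with all 18 arrays, and 3 to 6 with 1 array left out. In lncKO against wild type in pituitary, 1 member, lower, passed with a variance trend and robust estimation, where 0 had. The miR-205 KO difference between tissues had 4 calls and 1 to 5 with 1 array left out: 1 without skin miR-205 KO 7, pituitary wild type 12 or pituitary miR-205 KO 16, and 2 without skin wild type 3, pituitary wild type 11 or pituitary miR-205 KO 17. With centring it had 3 positive and 1 negative, of which 3 calls were shared with those reported. The lncKO difference had 5 to 10 and pituitary against skin 29 to 36 calls with 1 array left out. Over all probe sets, the split in skin lncKO was 1215 higher and 1794 lower as reported and 1509 and 1476 after quantile normalization, and in skin miR-205 KO 1328 and 1965 as reported and 1582 and 1563 after it. The cause of these changes was not tested. Members near an intensity of 16 (Cox6b2, Cox7b2 and Cox8b) are limited by the signal.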
